A study of Mus musculus with 8 samples.

Results

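The genes described here are 10 members of the NRF2 and glutathione programme, Nfe2l2, Nqo1, Hmox1, Gclc, Gclm, Txnrd1, Srxn1, Gsr, Slc7a11 and G6pdx. They were taken by name from a list of the programme that was chosen with earlier results of these data known. All 10 were present among the 14012 genes counted. NRF2, encoded by Nfe2l2, is a transcription factor that is held at a low level by KEAP1, an adaptor that brings it to the CUL3 ubiquitin ligase. Electrophiles and oxidants disable KEAP1, after which NRF2 accumulates, pairs with a small MAF protein and binds antioxidant response elements in the genes of glutathione synthesis, thioredoxin reduction, quinone and heme breakdown and NADPH supply. Several of these genes, Slc7a11 in particular, can also be switched on by ATF4, the factor of the integrated stress response that mitochondrial dysfunction engages in muscle.

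RNA was sequenced from the quadriceps femoris of 4 control mice, Grpel1 flox/flox, and 4 knockout mice, labelled Grpel1 smk -/-, in which the floxed Grpel1 gene was removed in muscle fibres. GRPEL1 is the nucleotide exchange factor of the mitochondrial matrix chaperone mtHSP70, which pulls proteins into mitochondria. The knockout carried a tamoxifen-inducible Cre driven by the human skeletal actin promoter, so vessel, fat, immune and satellite cells kept the gene, and tamoxifen was given to young males. The labels name the animal behind each library but give neither age nor time after tamoxifen, and they enter no treatment for any sample. The study speaks of untreated Grpel1 flox/flox littermates when it describes body weight, and if these control mice were untreated too, tamoxifen and the deletion cannot be told apart. The comparison addresses how the antioxidant programme of muscle stands once mitochondrial protein import is disturbed.

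Each library held 16017565 to 20361144 counts, so that 3 counts corresponded to 0.119 to 0.242 CPM, the counts scaled to a common library size. Levels are given as CPM after TMM scaling, a library scaling that assumes most genes do not change. The TMM factors lay at 0.75 to 0.84 in control and 1.19 to 1.33 in knockout muscle. The 8 muscle fibre markers, 6 of which fell, summed to 191101 to 244085 CPM in control and 64986 to 92960 CPM in knockout libraries. The others, named after their values were seen, were Myh1 and Myh2. Myh1 rose (log2 fold change 1.15, edgeR adjusted p = 0.0017) and Myh2 did not pass (0.21). After TMM scaling, the count over the whole Grpel1 gene did not separate the genotypes, with 64.1 to 71.2 CPM in control and 59.9 to 71.9 CPM in knockout libraries. Unscaled, it was 861 to 1087 counts in control and 1461 to 1658 counts in knockout libraries, higher in every knockout library. Neither form shows the deletion, so the groups rest on the labels. Of the marker lists for other cells, none of 6 adipocyte, 1 of 10 macrophage (Cd68), 0 of 5 endothelial, 0 of 6 fibroblast, 0 of 5 erythroid and 2 of 3 satellite cell markers were higher in knockout muscle, while 5 endothelial and 5 fibroblast markers were lower. With TMM scaling, 23.6% of all genes were higher and 21.1% lower. With library totals alone 7 macrophage markers were higher and 0 endothelial and 1 fibroblast marker lower. In that fit 60.6% of all genes were higher and 6.23% lower. DESeq2 called 4 macrophage markers and 23.2% of all genes higher. In bulk muscle, fewer cells of a type and less RNA per cell cannot be told apart.

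In all, 6265 genes passed an adjusted p of 0.01 in edgeR's quasi-likelihood test, the threshold used throughout. Of the 10 NRF2 and glutathione genes, 8 rose and 0 fell in knockout muscle, where 23.6% of all genes rose and 21.1% fell. In the same 8 genes every knockout library lay above every control library, which held for 29% of all genes. The fitted log2 fold changes were positive for all 10, with a median of 0.88 against 0.07 over all genes, and 4 genes, Slc7a11, Hmox1, G6pdx and Srxn1, rose by at least 2-fold, as did 9.83% of all genes. The median of all genes depended on the scaling. It was 0.73 when libraries were scaled by their totals alone, and the 10 genes lay above the median of all genes under this and each of the other alternatives tried. The 10 genes were chosen with earlier results of these data known, so these contrasts describe them and are no test of the programme.

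**Figure D1:**
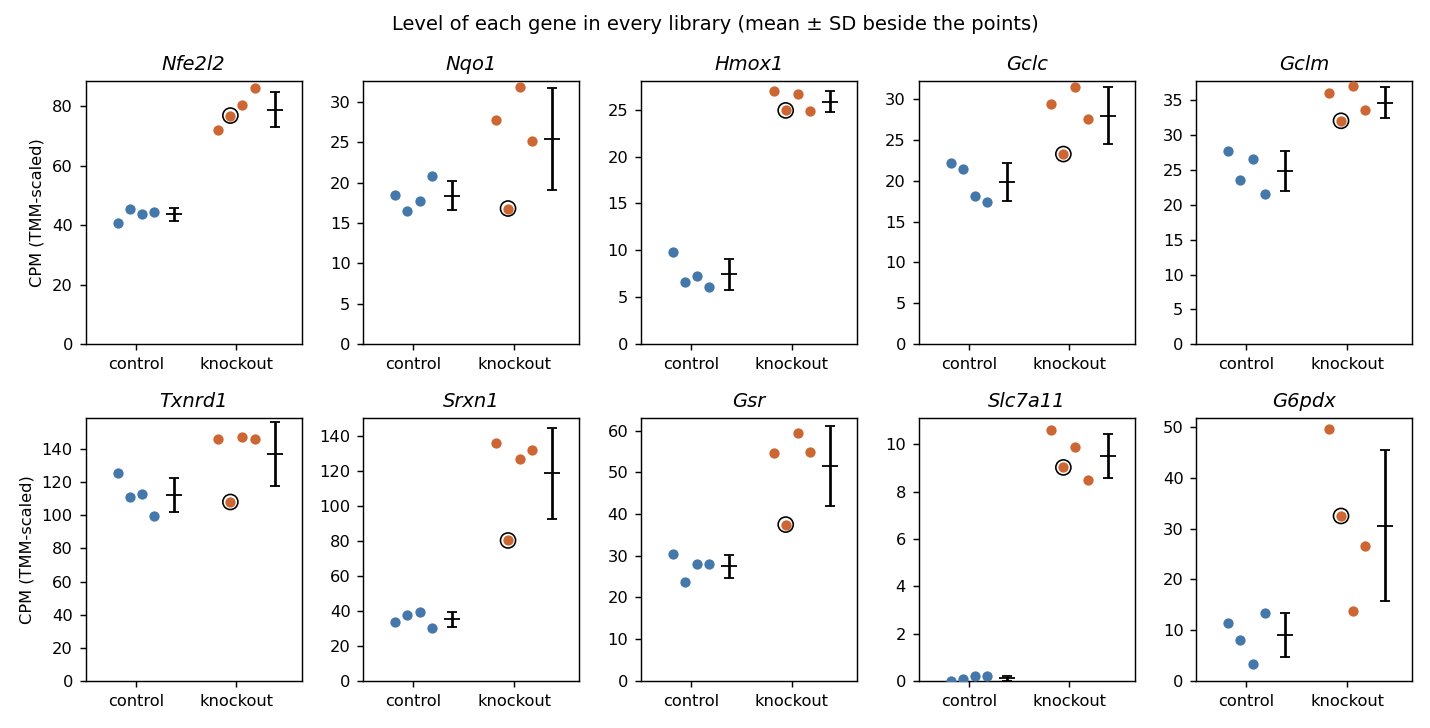
Level of each of the 10 genes in TMM-scaled CPM (vertical axes, each from 0) in the 4 control (blue) and 4 knockout (orange) libraries, with mean ± SD beside the points and knockout replicate 2 ringed. The groups are apart for 8 genes and overlap for Nqo1 and Txnrd1, where the ringed library lies among the controls.

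For 7 of the 10 genes the RefSeq promoter table (GRCm38.p6, 250 bases before to 50 bases after a start site) held an entry, with 9 start sites in all. Hmox1, Gclc and Gsr were not among them. The core of the antioxidant response element, spelled TGACNNNGC and searched on both strands, matched 5 of the 9 windows and 12.4% of all 32851 windows in the table. The 5 were those of Nfe2l2, Gclm, Srxn1, G6pdx and the second of 3 start sites of Txnrd1. An AP-1 site, TGAGTCA, matched 1 of the 9 windows against 5.2% of all, and the core of the C/EBP-ATF response element, TGATGNAA, which ATF4 binds with a C/EBP partner, matched 1 of the 9 against 3.97%. The antioxidant response element core can share bases with an AP-1 site on the other strand where TGACTCA is followed by GC. The stretches around the matches that lie before a start site are shown so that the letters can be seen beside the changes described below, with the matched bases in capitals and each read 5′ to 3′ on the strand of the gene.
Nfe2l2, chr2:75704883-75704913, minus strand: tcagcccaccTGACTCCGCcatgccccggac
Gclm, chr3:122245411-122245443, plus strand: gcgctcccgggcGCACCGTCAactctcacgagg
Txnrd1 (second start site), chr10:82859102-82859134, plus strand: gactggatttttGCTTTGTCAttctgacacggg
G6pdx, chrX:74428917-74428949, minus strand: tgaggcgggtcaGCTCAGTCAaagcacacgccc
Srxn1, chr2:152105410-152105497, plus strand: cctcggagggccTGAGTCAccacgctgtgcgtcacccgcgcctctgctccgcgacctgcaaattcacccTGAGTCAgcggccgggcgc
Slc7a11, chr3:50443641-50443691, minus strand: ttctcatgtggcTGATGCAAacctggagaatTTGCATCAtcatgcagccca

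Srxn1 held the AP-1 letters in 2 places, 102 and 45 bases before the start, as did 0.222% of all windows, and an antioxidant response element core beginning 28 bases after it. Slc7a11 held the C/EBP-ATF letters in 2 places and in opposite orientation, beginning 66 and 47 bases before the start, while 0.07% of all windows held 2 or more. None of the 3 motifs matched the window of Nqo1, which says only that these letters are not within it. The matches are descriptions of sequence and no binding was measured here.

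**Figure D2:**
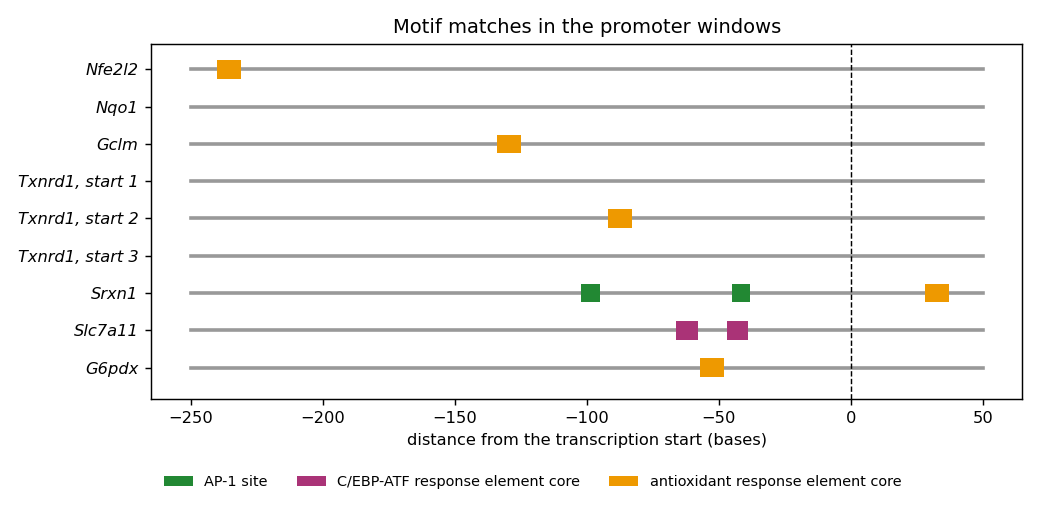
Position of motif matches (coloured blocks) relative to the transcription start at 0, in bases, in the 9 promoter windows of the 7 genes with an entry. Antioxidant response element cores (orange) lie in 5 windows, AP-1 sites (green) in Srxn1 and C/EBP-ATF cores (purple) in Slc7a11.

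Nfe2l2, which encodes NRF2 itself (chr2:75675513-75704663, minus strand), was counted at 40.7, 45.5, 43.8 and 44.4 CPM in control and 72.0, 76.8, 80.4 and 86.2 CPM in knockout replicates 1 to 4. Every knockout library stood clear of the controls, and the libraries within each group lay close together. The log2 fold change was 0.85 (SE 0.073, n = 4 per group, edgeR adjusted p = 6.5e-06). An exact two-sided permutation test gave p = 0.0286, the smallest that 4 against 4 libraries allow, and this was also the value for each of the other 7 genes whose groups were apart. The transcript level says nothing of the NRF2 protein, whose amount is set mainly by its breakdown.

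Of 9 regulators of NRF2 in the table, 4 rose, 2 fell and 3 did not pass, with a median log2 fold change of 0.26. For this and the further lists, the shares of all genes to set beside the counts are again 23.6% higher and 21.1% lower. These lists were also chosen with earlier results of these data known. Maff, a small MAF partner, rose by 1.27 (SE 0.22, edgeR adjusted p = 7.3e-04), from 4.34 ± 1.40 to 10.6 ± 1.77 CPM (mean ± SD, n = 4). Sqstm1, which encodes the autophagy receptor p62 that can sequester KEAP1, rose by 1.03 (SE 0.10, edgeR adjusted p = 1.7e-05). The other 2 that rose, named after their values were seen, were Nfe2l1 (0.64), a relative of NRF2, and Mafk (0.56), whose call was lost with RLE size factors (edgeR adjusted p = 0.012) and with an adipocyte-marker covariate (0.023). Cul3, the scaffold of the ligase, was halved, at 457 ± 48.8 CPM in control and 226 ± 17.0 CPM in knockout muscle, with a log2 fold change of -1.02 that remained negative (-0.35) with library totals alone. Keap1 was at 127 ± 5.14 and 89.6 ± 7.83 CPM, a log2 fold change of -0.50 (edgeR adjusted p = 2.7e-04) that turned to 0.16 with library totals alone, still 0.57 less than the all-gene median of that fit.

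Glutathione is made from cysteine, which enters many cells as cystine through the exchanger xCT, encoded by Slc7a11. Slc7a11 (chr3:50364936-50443613, minus strand) had 0, 1, 3 and 3 counts in the control libraries and 254, 197, 239 and 214 counts in the knockout libraries. It was at or near 0 in every control and plainly present in every knockout. The pooled counts, 7 against 904, gave a TMM-scaled ratio of 78.0, with an exact 95% interval from 37.7 to 195 that covers counting error only. The groups differed at an edgeR adjusted p of 3.6e-07, and the fitted log2 fold change of 6.21 depends on the small count added to the controls. Only 0.278% of all genes had a larger fitted change.

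Per kilobase of exon, Slc7a11 was still the lowest of the 10 genes in knockout muscle, at 1.03 ± 0.0998 RPKM. Slc3a2, the heavy chain that xCT shares with other amino acid transporters, rose from 36.3 ± 2.26 to 186 ± 6.73 CPM, a log2 fold change of 2.36 (SE 0.070, edgeR adjusted p = 3.4e-08). The log2 ratio of Slc7a11 to Slc3a2 counts, with 0.5 added to each count, was -8.22 ± 1.27 in control and -4.29 ± 0.15 in knockout libraries, without overlap. Its control side rests on 0 to 3 counts, and the difference of 3.93 became 2.94 with 2 added instead of 0.5.

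The catalytic and the modifier subunit of glutamate-cysteine ligase, the rate-limiting enzyme of glutathione synthesis, are encoded by Gclc and Gclm. Gclc (chr9:77754535-77794489, plus strand) stood at 22.1, 21.5, 18.2 and 17.5 CPM in control and 29.4, 23.3, 31.5 and 27.6 CPM in knockout libraries. The gap between the groups was narrow, with knockout replicate 2 only just above the highest control. Gclc rose by 0.50 on the log2 scale (SE 0.11, edgeR adjusted p = 0.0039). The call was lost without control replicate 3 (0.46) or 4 (0.44) and without knockout replicate 1 (0.46), 3 (0.40) or 4 (0.49), with adjusted p-values up to 0.017.

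Gclm (chr3:122245557-122267215, plus strand) stood at 27.7, 23.6, 26.6 and 21.5 CPM in control and 36.1, 32.1, 37.0 and 33.5 CPM in knockout libraries. All 4 knockout libraries were above the controls, and the call held whichever library was left out. The increase was 0.48 on the log2 scale (SE 0.092, edgeR adjusted p = 0.0013). The log2 ratio of Gclc to Gclm counts was -0.33 ± 0.17 in control and -0.32 ± 0.10 in knockout libraries. The difference of 0.0085 was far smaller than the spread between replicates (exact permutation p = 0.914, n = 4 per group). Gss, glutathione synthetase, which completes the tripeptide, is named after its values were seen, and doubled from 9.98 ± 0.79 to 20.5 ± 1.56 CPM (log2 fold change 1.04, edgeR adjusted p = 8.8e-06).

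Oxidised glutathione is returned to its reduced form by glutathione reductase, encoded by Gsr, at the expense of NADPH. Gsr (chr8:33653238-33698162, plus strand) measured 30.3, 23.6, 28.1 and 27.9 CPM in control and 54.5, 37.5, 59.3 and 54.9 CPM in knockout libraries. The knockout libraries were all higher, replicate 2 the least so. Gsr rose by 0.91 on the log2 scale (SE 0.14, edgeR adjusted p = 3.1e-04) and 1.02 without knockout replicate 2.

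G6pdx encodes glucose-6-phosphate dehydrogenase, the entry to the pentose phosphate pathway and a main source of cytosolic NADPH. G6pdx (chrX:74409486-74429161, minus strand) measured 11.4, 8.05, 3.29 and 13.4 CPM in control and 49.5, 32.5, 13.7 and 26.6 CPM in knockout libraries. It was the most uneven of the genes apart from Slc7a11 in control muscle, with a coefficient of variation of 48.8% in control and 48.6% in knockout libraries, and the lowest knockout library barely exceeded the highest control. The log2 fold change was 1.76 (SE 0.43, edgeR adjusted p = 0.0059). The call was lost without control replicate 1 (1.88), 2 (1.70) or 3 (1.48) and without knockout replicate 1 (1.40), 2 (1.70) or 4 (1.78), with adjusted p-values up to 0.020.

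The level of G6pdx moved with adipocyte markers. The 6 markers (summed) stood at 907, 682, 228 and 995 CPM in control and 1579, 965, 471 and 1041 CPM in knockout libraries, and none passed the test between genotypes. Control replicates ranked in the same order by G6pdx and by the marker sum, and in knockout muscle the highest (replicate 1) and the lowest (replicate 3) coincided, while replicates 2 and 4 changed places. With the mean log2 CPM of the 6 markers, rather than their sum, as a covariate, the log2 fold change of G6pdx was 1.04 in place of 1.76. It still passed (edgeR adjusted p = 0.0048). G6pdx overlaps Ikbkg on the opposite strand, and whether the counting used strand is not given in the sources used here. Ikbkg was at 26.7 ± 1.31 CPM in control and 32.3 ± 1.95 CPM in knockout muscle. Its log2 fold change of 0.28 also passed (edgeR adjusted p = 0.0070). The part of Ikbkg reads in the G6pdx counts was not tested.

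**Figure D3:**
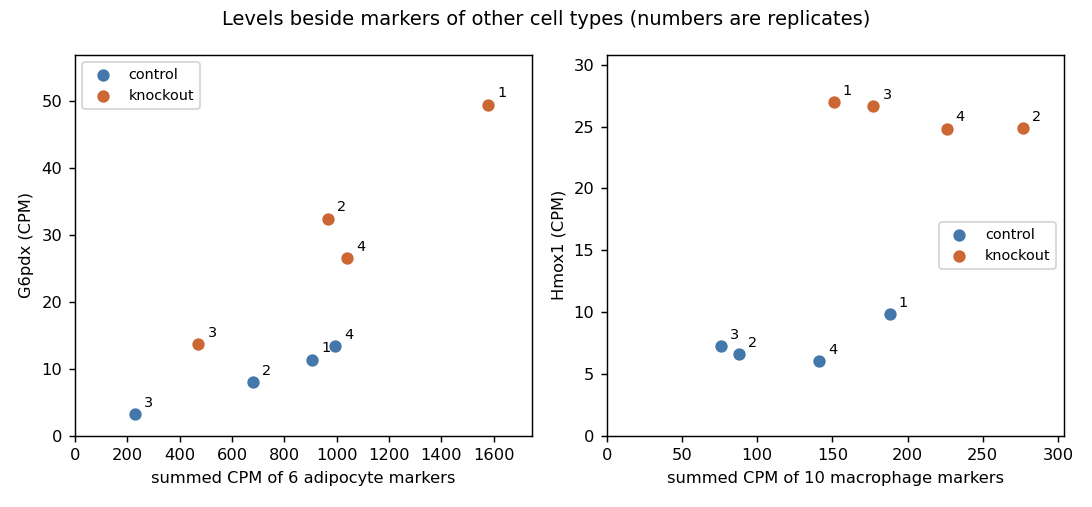
Left, G6pdx level (CPM) against the summed CPM of 6 adipocyte markers, and right, Hmox1 level (CPM) against the summed CPM of 10 macrophage markers, 1 point per library (control blue, knockout orange, numbers are replicates). G6pdx is lowest in replicate 3 of either group, where the adipocyte sum is 228 and 471 CPM. Hmox1 lies at 24.8 to 27 CPM in every knockout library across macrophage sums of 151 to 277 CPM. Among the controls, replicate 1 has both the highest macrophage sum (188 CPM) and the highest Hmox1 level (9.86 CPM). The part of macrophages in the Hmox1 level was not tested.

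Thioredoxin reductase and sulfiredoxin serve the thiol system that runs beside glutathione. Txnrd1, the cytosolic thioredoxin reductase (chr10:82833951-82897724, plus strand), was at 125, 111, 113 and 99.7 CPM in control and 146, 108, 147 and 146 CPM in knockout libraries. Knockout replicates 1, 3 and 4 were nearly equal and above all controls, while replicate 2 lay among the controls. The log2 fold change of 0.29 (SE 0.11) did not pass (edgeR adjusted p = 0.049, exact permutation p = 0.114). Of the 8 fits that each left out 1 library, only 1 passed, that without knockout replicate 2 (0.37, edgeR adjusted p = 0.0040). Without knockout replicate 3 the change was 0.22 (edgeR adjusted p = 0.15).

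Srxn1, which encodes the enzyme that repairs overoxidised peroxiredoxins (chr2:152105524-152111376, plus strand), was at 33.7, 37.6, 39.3 and 29.99 CPM in control and 136, 80.2, 127 and 132 CPM in knockout libraries. All knockout libraries were far above the controls, with replicate 2 again the lowest. The log2 fold change was 1.76 (SE 0.16, edgeR adjusted p = 1.2e-05) and 1.89 without that library. Per kilobase of exon, Srxn1 moved from the second place among the 10 genes in control muscle (12.5 ± 1.48 RPKM) to the first in knockout muscle (42.2 ± 9.21 RPKM).

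The remaining genes are detoxifying enzymes. Hmox1, heme oxygenase 1, which breaks heme down to biliverdin, iron and carbon monoxide (chr8:75093618-75100593, plus strand), was at 9.86, 6.61, 7.23 and 6.05 CPM in control and 27, 24.9, 26.7 and 24.8 CPM in knockout libraries. The 4 knockout libraries were nearly alike and well separated from the controls. Hmox1 rose by 1.80 on the log2 scale (SE 0.14, edgeR adjusted p = 3.2e-06). Macrophages also express Hmox1. The 10 macrophage markers summed to 75.9 to 188 CPM in control and 151 to 277 CPM in knockout libraries, with Cd68 the 1 marker that rose (log2 fold change 2.62), and the part of these cells in the Hmox1 level was not tested.

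Nqo1, the quinone reductase often used as a readout of NRF2 activity (chr8:107388225-107403205, minus strand), was at 18.4, 16.5, 17.7 and 20.8 CPM in control and 27.8, 16.8, 31.8 and 25.2 CPM in knockout libraries. Knockout replicate 2 fell within the control range and the other 3 lay above it. The log2 fold change of 0.47 (SE 0.17) did not pass (edgeR adjusted p = 0.039, exact permutation p = 0.114). Of the 8 fits that each left out 1 library, only 1 passed, that without knockout replicate 2 (0.61, edgeR adjusted p = 0.0021). Without knockout replicate 3 the change was 0.31 (edgeR adjusted p = 0.14).

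Knockout replicate 2 was the lowest knockout library for 6 of the 10 genes, Nqo1, Gclc, Gclm, Txnrd1, Srxn1 and Gsr. How often this library was the lowest over all genes was not counted. Among the knockout libraries it had the smallest total, 16424608 counts, and the largest TMM factor, 1.33. It also had the highest summed macrophage markers of all libraries (277 CPM) and the lowest summed erythroid markers, 8.61 CPM against 55.8 to 96.7 CPM in the other knockout libraries. The part of these features in its levels was not tested. For Nfe2l2, Hmox1, Slc7a11 and G6pdx, other knockout libraries were the lowest.

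**Figure D4:**
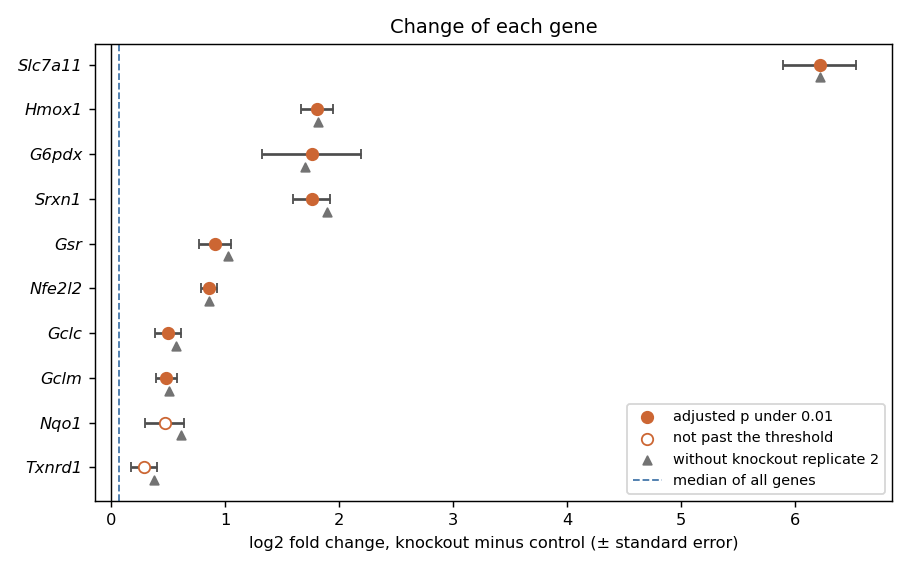
Fitted log2 fold change, knockout minus control (horizontal axis, ± standard error), of the 10 genes, with filled points for an adjusted p under 0.01, triangles for the fit without knockout replicate 2 and a dashed line at the median of all genes (0.07). All points lie to the right of the median, and the 2 open points, Nqo1 and Txnrd1, are among the smallest changes.

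Compared per kilobase of exon, the order of the 10 genes differed between the genotypes. In control muscle Txnrd1 stood alone at the top, at 27.9 ± 2.61 RPKM. Srxn1, Gclm, Nqo1, Nfe2l2 and Gsr followed between 12.5 and 10.3 RPKM, with ranges that overlapped from each to the next. Gclc (5.78), Hmox1 (4.72) and G6pdx (3.45 RPKM) formed a lower group, again overlapping from each to the next, and Slc7a11 was last at 0.0127 RPKM.

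In knockout muscle Srxn1 and Txnrd1, at 34.1 ± 4.78 RPKM, overlapped at the top. Nfe2l2 followed at 20.7 and Gsr at 19.3 RPKM. Gclm, Hmox1 and Nqo1 stood at 16.7, 16.4 and 16.4 RPKM, and G6pdx and Gclc at 11.7 and 8.15 RPKM, each range overlapping the next. Slc7a11 was apart below them.

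Of 5 pairs of functionally linked genes whose count ratios were compared, none reached an adjusted p of 0.05 (Benjamini-Hochberg over the 5). The log2 ratio of Gsr to Txnrd1 was -2.03 ± 0.16 in control and -1.42 ± 0.088 in knockout libraries, and, as for Slc7a11 to Slc3a2 above, the groups did not overlap. For both pairs the exact permutation p was 0.0286 and the adjusted p 0.0714. With 4 libraries a group no exact permutation p can fall below 0.0286. These pairs could therefore not reach an adjusted p below 0.0714 while the other pairs overlapped, however large their difference. The log2 ratio of Txnrd1 to its mitochondrial counterpart Txnrd2 differed by 0.38 (exact permutation p = 0.0571, adjusted p = 0.0952), and that of G6pdx to Pgd, the next NADPH-producing enzyme of the pathway, by -0.44 (exact permutation p = 0.143, adjusted p = 0.179).

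Of 20 other genes known as NRF2 targets, 10 rose, 1 fell and 9 did not pass, with a median log2 fold change of 0.50. Pgd rose by 2.23 (SE 0.31, edgeR adjusted p = 1.8e-04), though its levels were uneven between libraries, at 142 ± 52.6 CPM in knockout muscle. Cbr3, a carbonyl reductase, rose by 1.19 (SE 0.22), and Gstp1, a glutathione S-transferase, was the 1 gene that fell, by 0.33, a direction that turned to 0.34 upwards with library totals alone. With the adipocyte-marker covariate 8 of the 20 rose and Gstp1 was not called (edgeR adjusted p = 0.019). In that fit 19.4% of all genes rose and 18.1% fell.

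Among 21 genes of glutathione use and turnover, 4 rose, 5 fell and 12 did not pass, and the median log2 fold change was -0.29, which turned to 0.37 with library totals alone, there 0.36 below the median of all genes. Gsto1, an omega-class glutathione transferase, rose from 26.6 ± 1.87 to 188 ± 38.7 CPM, a log2 fold change of 2.82 (SE 0.15, edgeR adjusted p = 4.1e-07). Gpx3, the secreted glutathione peroxidase, rose by 1.71 (SE 0.22), and Gpx4, the lipid peroxide peroxidase, named after its values were seen, by 0.83 (SE 0.11). Glrx, cytosolic glutaredoxin, fell by 1.12 (SE 0.11, edgeR adjusted p = 1.5e-05) and remained lower with library totals alone (-0.46). Ggct, which cleaves glutamyl dipeptides, fell by 0.93 (SE 0.23), and its call was lost with library totals alone (-0.26, edgeR adjusted p = 0.31) and with the adipocyte-marker covariate (-0.98, adjusted p = 0.013).

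Of 8 genes of cysteine supply in the table, 4 rose, 1 fell and 3 did not pass, with a median log2 fold change of 1.35 that was 0.49 with the adipocyte-marker covariate. Cbs, also on the list, was not among the genes counted. Cth, cystathionine gamma-lyase, the last enzyme of the transsulfuration route to cysteine, was at 1.34 ± 0.44 CPM in control and 14.7 ± 2.03 CPM in knockout muscle, a log2 fold change of 3.42 (SE 0.20, edgeR adjusted p = 7.9e-07). Slc1a4, a neutral amino acid transporter, rose by 2.91 (SE 0.28). Mpst, a mitochondrial and cytosolic enzyme of cysteine breakdown, fell by 1.18 (SE 0.12) and remained lower with library totals alone (-0.51).

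For NADPH supply 4 of 10 genes rose, 2 fell and 4 did not pass, with a median log2 fold change of 0.63. Besides Pgd these were Pgls (1.19), the lactonase between G6pdx and Pgd, and, named after their values were seen, Idh1 (1.02) and Taldo1 (0.71). H6pd, the enzyme of the endoplasmic reticulum, fell by 0.75, a call that was lost with library totals alone (-0.076, edgeR adjusted p = 0.43). Rpia, ribose-5-phosphate isomerase, fell by 0.46, a direction that reversed with library totals alone (0.21). With the adipocyte-marker covariate 3 of the 10 rose and 1 fell, beside 19.4% and 18.1% of all genes. Taldo1 (0.52, edgeR adjusted p = 0.039) and Rpia (edgeR adjusted p = 0.0103) were no longer called, and the log2 fold change of Idh1 was 0.67.

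Of 11 genes of the thioredoxin system, 4 rose, 2 fell and 5 did not pass, and the median log2 fold change of 0.045 was close to that of all genes. Prdx4, the peroxiredoxin of the endoplasmic reticulum, rose by 0.87 (SE 0.13), Txn1, cytosolic thioredoxin, by 0.74 (SE 0.063), and Prdx6 and Txnrd3, named after their values were seen, by 0.60 and 0.59. The 2 peroxiredoxins found in mitochondria, Prdx5 and Prdx3, fell by 0.39 and 0.30, directions that turned to 0.28 and 0.37 upwards with library totals alone, and neither was called with the adipocyte-marker covariate (edgeR adjusted p = 0.025 and 0.034).

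The ATF4 arm had the highest median log2 fold change of the lists, at 2.62, and of its 7 genes 6 rose and 0 fell. Trib3, a pseudokinase induced by ATF4, went from 1.16 ± 0.53 to 149 ± 9.73 CPM, a log2 fold change of 6.98 (SE 0.20, edgeR adjusted p = 2.9e-08). Asns, asparagine synthetase, went from 2.63 ± 0.93 to 138 ± 8.94 CPM, a log2 fold change of 5.71 (SE 0.20). The 1 gene that did not pass was Chac1, which degrades glutathione, at 110 ± 62.3 CPM in control and 49.8 ± 10.7 CPM in knockout muscle (log2 fold change -1.15, SE 0.36, edgeR adjusted p = 0.020). These lists share some genes, such as Pgd and Chac1, and no test compared one list with another.

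**Figure D5:**
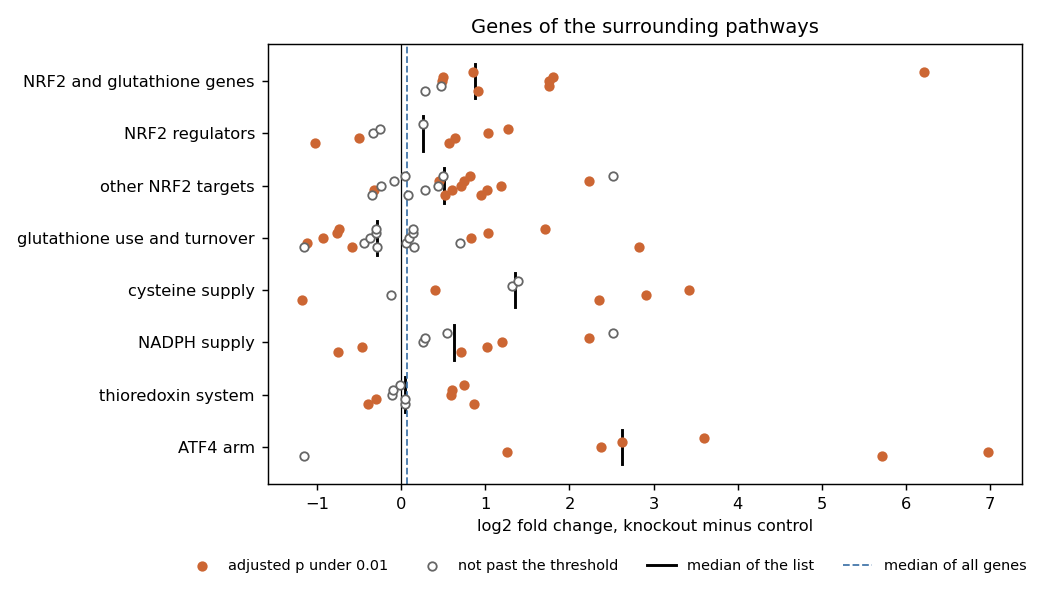
Fitted log2 fold change, knockout minus control (horizontal axis), of each gene in the list of 10 and in 7 surrounding lists, with filled points for an adjusted p under 0.01, a black bar at the median of each list and a dashed line at the median of all genes. The ATF4 arm has its median at 2.62, cysteine supply at 1.35 and the 10 NRF2 and glutathione genes at 0.88, while glutathione use lies at -0.29, a sign that turned with library totals alone.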

How the data were processed

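The deposited table held raw counts for 8 libraries. Per the labels, polyA RNA was made into libraries with a directional kit, and the submitters' processing notes name bcl2fastq 2.20.0.422, cutadapt, STAR 2.5.4b, GRCm38 and DESeq2 1.32.0. The authors counted uniquely mapped reads over exons without duplicates and kept genes with at least 50 reads in total (lowest total found, 51). The table also held the authors' fold changes, p-values and FPKM, which were not used. The deposited counts summed to 16017565 to 20361144 per library, and exon widths deposited by the authors served for RPKM. Genotypes were compared for 14012 genes with edgeR 4.0.16 (R 4.3.3, limma 3.58.1), TMM scaling, quasi-likelihood tests and Benjamini-Hochberg adjustment over all genes, with adjusted p under 0.01. The fit was tested on simulated data, in which changes of low-count genes were recovered less often. Far fewer genes changed there than passed here, equally many up and down, so the simulation did not test the assumption of TMM scaling. Count ratios of 5 gene pairs were compared by exact permutation over 70 assignments. Replicates are separate animals per the labels. Alternatives were other scalings, a low-count filter, DESeq2 1.42.0, a threshold of 0.05, a replicate block, an adipocyte-marker covariate and each library left out. Members and lists were chosen with earlier results of these data known. From each other list the text names up to 2 genes with the largest and up to 2 with the smallest change among those that passed without overlap of the groups, and says where it names others after seeing their values.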

Additional observations from a re-analysis of the deposited data

Results flagged for a closer look

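In 20 groups of 4 libraries (10 genes, 2 genotypes), 1 library was set apart from its group by more than the 95% limit of Dixon's test in 2 cases, and chance gives about 1 in 20. Both were knockout replicate 2. Txnrd1 was at 108 CPM there against 146 to 147 CPM in the other knockout libraries, a gap of 0.966 of the whole range. Srxn1 was at 80.2 CPM against 127 to 136 CPM, a gap of 0.833 of the range.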

How the results depend on the processing

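Of the fits tried, scaling by library totals alone moved the counts most, to 8498 genes higher and 873 lower (90.7% of calls higher, against 52.7% with TMM scaling). All 10 genes were then higher, as were 60.6% of all genes. At an adjusted p under 0.05 all 10 were also higher, where 31.7% of all genes were higher and 27.5% lower. No alternative put any of the 10 lower. Leaving out 1 library gave 2596 to 3005 genes higher, 2600 to 2937 lower and 6 to 9 of the 10 genes higher, with 6 without control replicate 3 or knockout replicate 1 or 4. Nfe2l2, Hmox1, Gclm, Srxn1, Gsr and Slc7a11 kept their call under all 17 alternatives, and Gclc lost it with the adipocyte-marker covariate (0.49, edgeR adjusted p = 0.014).

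Leaving out 1 library, the difference in log2 ratio ranged from -0.065 to 0.072 for Gclc to Gclm, changing sign around 0 without control replicate 3 (-0.065) or knockout replicate 3 (-0.020) or 4 (-0.0032). It ranged from 3.39 to 4.30 for Slc7a11 to Slc3a2, 0.32 to 0.46 for Txnrd1 to Txnrd2, 0.55 to 0.68 for Gsr to Txnrd1 and -0.63 to -0.30 for G6pdx to Pgd. Without knockout replicate 2 the first 3 of these 4 reached an adjusted exact permutation p of 0.0476. The groups then no longer overlapped for Txnrd1 to Txnrd2 either, and 0.0476 is the lowest adjusted p that 3 separated pairs allow.

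Controls and knockouts share replicate numbers, and deviations of libraries with the same number correlated by 0.118, 0.0031, 0.42 and 0.138. The numbers were not taken as pairs, since the correlation was near 0 for replicate 2. However, 3 of 4 libraries correlated best with their own number, so shared structure between them remains possible. With the replicate block 3215 genes were higher, 2908 lower and 8 of the 10 genes higher. G6pdx then had a log2 fold change of 1.76 with an edgeR adjusted p of 1.9e-04. In the surrounding lists the block called Chac1 lower (-0.99, edgeR adjusted p = 0.0044). Cysteine supply went from 4 to 6 genes higher, with Slc1a5 (1.47) and Cdo1 (1.64). NADPH supply went from 4 to 5, with Tkt (2.65, edgeR adjusted p = 6.4e-04). Slc1a5, Cdo1 and Tkt are named after their values were seen. Of all genes, 22.9% were higher and 20.8% lower with the block.

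With 4 libraries a group, no exact permutation p can fall below 0.0286. Depth limited Slc7a11 alone, since the lowest count of any other of the 10 genes in a library was 46.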

Other observations

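For each of the 10 genes, the genes with the most similar profile were found as those with the smallest root mean square difference in log2 CPM over the 8 libraries, after centring on the control mean, among genes with a mean of at least 1 CPM. The nearest to Nfe2l2 were Plekha5 (0.063), Tceal8 (0.065) and Ptpn12 (0.066), and the nearest to Gclm was Pcbp1 (0.045). For Srxn1 it was Ampd3 (0.12), for Hmox1 Mfsd7a (0.12), for Gsr Zdhhc12 (0.091), for Gclc Zscan25 (0.065), for Txnrd1 Haus1 (0.047) and for Nqo1 Pole4 (0.12). G6pdx, whose libraries were uneven in both groups, had Aacs, an enzyme of ketone body use for lipid synthesis, as its nearest (0.15), at a log2 fold change of 1.92, with Slc44a3 (0.24) farther off. No gene came close to Slc7a11, for which the smallest differences were 0.48 for Akr1b7, 0.49 for Car6 and 0.50 for Myl4. None of these genes was among the 10.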
